A study of Rattus norvegicus with 6 samples.

Results

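The CCA-end fragments of mature tRNA were examined in sperm small RNA of rats fed a high-protein diet (HPD fathers) or a standard diet (SD fathers). The set was chosen by row name. It holds every row of the small RNA table that is annotated to a mature tRNA and to its CCA end, with 37 rows for reads that match the rat genome and 47 rows for reads that do not. These 84 rows stand among 272 rows of mature tRNA and 26562 rows in all, and they cover 47 anticodons of 22 amino acid names. Both kinds of row exist for 37 tRNAs, and 10 tRNAs have an unmatched row only. The set was proposed with the HPD and SD counts of these same libraries known, so the diet contrast of the CCA-end rows is given below as a description and carries no test.

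A tRNA carries an amino acid to the ribosome on the 3 letters CCA at its 3′ end. In rats, as in other mammals, these letters are not encoded in the tRNA gene but are added to the transcript by a tRNA nucleotidyltransferase. A read that runs into the CCA end therefore matches the genome over its full length only where the genome happens to hold the same letters. Mature sperm is rich in tRNA fragments, of which those from the 5′ end are the best known.

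All animals were wild type male Wistar rats. HPD fathers received the high-protein diet for 2 to 3 months, starting at 10 weeks of age, and SD fathers received standard chow. Age was given as 5 months in both groups, and rats were housed in pairs. Each diet had 3 libraries, described as single rats, which the deposited tables name HPD2, HPD3 and HPD7 in the HPD group and CTRL1, CTRL2 and CTRL3 in the SD group. Sperm was squeezed from the epididymis and passed through hypotonic shock to lower the number of somatic cells. No batch was given, and diet and any batch that ran along with it cannot be told apart.

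The libraries held 5703625, 7697588 and 7448764 annotated reads in the HPD group, against 7920000, 4141018 and 4254027 in the SD group. CCA ends took 23629, 35849 and 42871 matched reads in the HPD libraries, against 91584, 41936 and 71141 in the SD libraries. Unmatched CCA ends took 181595, 232792 and 244651 reads in HPD and 222107, 101660 and 166025 in SD. Of 1858 rows that passed the low-count filter, 119 were lower and 41 higher in HPD at an adjusted p of at most 0.05 (edgeR quasi-likelihood test, Benjamini-Hochberg over all rows tested), and their median log2 fold change was 0.03. With upper quartile factors the calls were 91 lower and 85 higher, with library size alone 143 lower and 31 higher. Some miRNAs of other cell types were lower in HPD. Levels are given in CPM, reads per 1000000 reads of the library after TMM scaling. The 4 rows of liver, kidney and gut miRNAs summed to 32.5 to 49.5 CPM in HPD and 590.2 to 805 in SD and were all called lower. Leukocyte miRNAs summed to 1053 to 1190 in HPD and 1997 to 2434 in SD, with 4 of 6 called lower. Erythroid miRNAs (1 of 3 called lower) summed to 113 to 116 in HPD and 194 to 304 in SD, and the endothelial miRNA (1 of 1) was at 172 to 281 in HPD and 537 to 1150.3 in SD. The sums overlapped for smooth muscle and stroma miRNAs (2 of 4 called lower), at 3871 to 10654 in HPD and 6926 to 16808 in SD, and for epithelial miRNAs (1 of 7), at 4865 to 8693 in HPD and 6912 to 14288 in SD. Germ cell miRNAs summed to 17574 to 21646 in HPD and 13605 to 17677 in SD, with 0 of 13 called by edgeR and 1 past an unadjusted p of 0.05, and no marker was at 0 in either group. The part of these cells in the values below was not tested. In such bulk samples fewer cells of a type and less RNA per cell cannot be told apart.

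CCA ends that match the genome took a smaller part of the tRNA fragments in HPD fathers. They made up 0.686%, 0.735% and 0.934% of tRNA fragment reads in HPD2, HPD3 and HPD7, against 2.23%, 2.00% and 3.03% in CTRL1, CTRL2 and CTRL3. The means were 0.785 ± 0.132% in HPD and 2.42 ± 0.542% in SD (SD of the libraries, n = 3 each), and the groups did not overlap. Unmatched CCA ends were at 5.27%, 4.77% and 5.33% in HPD, against 5.40%, 4.84% and 7.07% in SD. Here the groups overlapped, with means of 5.12 ± 0.306% in HPD and 5.77 ± 1.16% in SD, and CTRL3 stood above the other libraries.

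The genome-matched part of all CCA-end reads was 11.5%, 13.3% and 14.9% in the HPD libraries, against 29.2%, 29.2% and 30.0% in the SD libraries. It averaged 13.3 ± 1.70% in HPD and 29.5 ± 0.460% in SD, so that the gap was far wider than the spread within either diet. Wilson 95% intervals around each of these percentages reached at most 0.235 percentage points to either side, and at most 0.0219 points for the matched share of tRNA fragments. They cover counting error only, since reads are not independent molecules. In the rest of the tRNA reads the diets overlapped, and 99.1 ± 0.089% matched the genome in HPD and 99.0 ± 0.224% in SD.

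**Figure D1:**
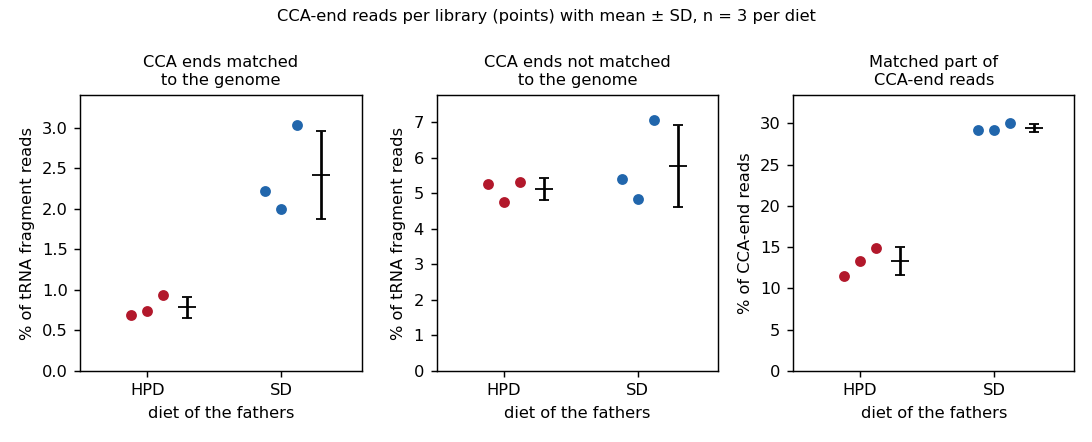
CCA-end reads in each library, as a percentage of tRNA fragment reads (left and middle) and as the matched percentage of CCA-end reads (right), with HPD in red, SD in blue and black bars for mean ± SD of 3 libraries. The matched share was 0.785% in HPD and 2.42% in SD without overlap, while the unmatched shares overlapped.

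Of the 37 matched rows, 34 passed the filter. Among these, 22 were called lower and 0 higher in HPD, where 6.4% of all rows tested were called lower and 2.21% higher. The contrast is the one the set was proposed on, so nothing is read from these shares. By edgeR 0 matched rows were higher at an unadjusted p under 0.05, and the adjusted calls of DESeq2 and of limma on the normalized counts also held 0 higher, which describes the same libraries and adds no support. The median log2 fold change of the 34 rows was -1.64, and 33 of the 34 were negative. With upper quartile factors or without a filter 31 were negative and 3 positive, without CTRL1 32 and 2, and with library size alone or tRNA rows on their own all 34 were negative. In 30 rows the 3 HPD libraries all lay below the 3 SD libraries, which held for 13.1% of all rows tested. Arg-ACG, Arg-TCG and Thr-CGT did not pass the filter, and each held at most 2 reads in any HPD library. Glu-CTC (0 reads in each HPD library), Val-TAC (0, 6 and 1) and Ala-TGC (4, 7.2 and 10.6) passed only through their SD counts. Rows that pass in this way lean to lower values in HPD by the filter itself. They are included in the counts and medians of the 34 rows, here and below.

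Arginine, histidine and asparagine tRNAs had large gaps at good depth. Matched CCA ends of tRNA-Arg-CCT were at 7.89, 6.92 and 6.96 CPM in HPD, against 147, 120.2 and 291 in SD, a log2 fold change of -4.68 ± 0.41 (± SE). The unmatched CCA ends of the same tRNA were at 51.7, 79.3 and 52.8 in HPD, against 68.2, 38.8 and 129 in SD, where the groups overlapped (-0.36 ± 0.42, and 0.20 without CTRL3). Thus, of the CCA-end rows of this arginine carrier, only the matched one separated the diets. tRNA-His-GTG, the histidine carrier, which receives an extra G at its 5′ end after transcription, was at 16.6, 14.1 and 13.0 CPM in its matched row in HPD, against 133, 209.9 and 206 in SD (-3.65 ± 0.31). Its unmatched row stood the other way round, at 82.4, 106 and 96.1 in HPD, against 55.8, 46.1 and 33.2 in SD (1.07 ± 0.30). Neither row of this tRNA overlapped between the diets. tRNA-Asn-GTT, the asparagine carrier, held 33.5, 26.8 and 24.2 matched CPM in HPD, against 237, 261 and 371 in SD (-3.36 ± 0.30). Its unmatched row was at 17.7, 10.2 and 22.0 in HPD, against 36.1, 21.1 and 65.5 in SD (-1.30 ± 0.46), and here HPD7 lay within the SD range.

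Leucine tRNAs gave the most abundant rows with a large gap. tRNA-Leu-CAG was at 175, 210.2 and 157 matched CPM in HPD, against 1101, 930.3 and 2455 in SD, a log2 fold change of -3.05 ± 0.38. tRNA-Leu-CAA was at 75.3, 91.3 and 66.8 in HPD, against 616, 523 and 1409 in SD (-3.45 ± 0.40). CTRL3 held the highest value of both, and without it the log2 fold changes were -2.48 for Leu-CAG and -2.86 for Leu-CAA. These rows share reads, since their counts add up to whole reads in every library, as 890.14 and 381.86 do in HPD2. They are therefore not separate measurements. Their unmatched rows overlapped between the diets, with 1447, 1719 and 1296 for Leu-CAG and 842, 1037 and 709.6 for Leu-CAA in HPD, against 2027, 1101 and 2766 for Leu-CAG and 1226, 668 and 1631 for Leu-CAA in SD. The 2 other leucine tRNAs under the naming rule differed less. Matched Leu-AAG was at 188, 179 and 255 in HPD, against 402, 266 and 510.0 in SD (-0.92 ± 0.29), and matched Leu-TAG at 63.0, 59.9 and 86.8 in HPD, against 143, 106 and 221 in SD (-1.16 ± 0.33). Both lay lower in every HPD library, though neither was called, and they share reads in the same way. Their unmatched rows were higher in every HPD library, at 321, 332 and 265 for Leu-AAG and 135, 141 and 116 for Leu-TAG in HPD, against 154, 122 and 181 for Leu-AAG and 68.2, 55.4 and 79.5 for Leu-TAG in SD.

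**Figure D2:**
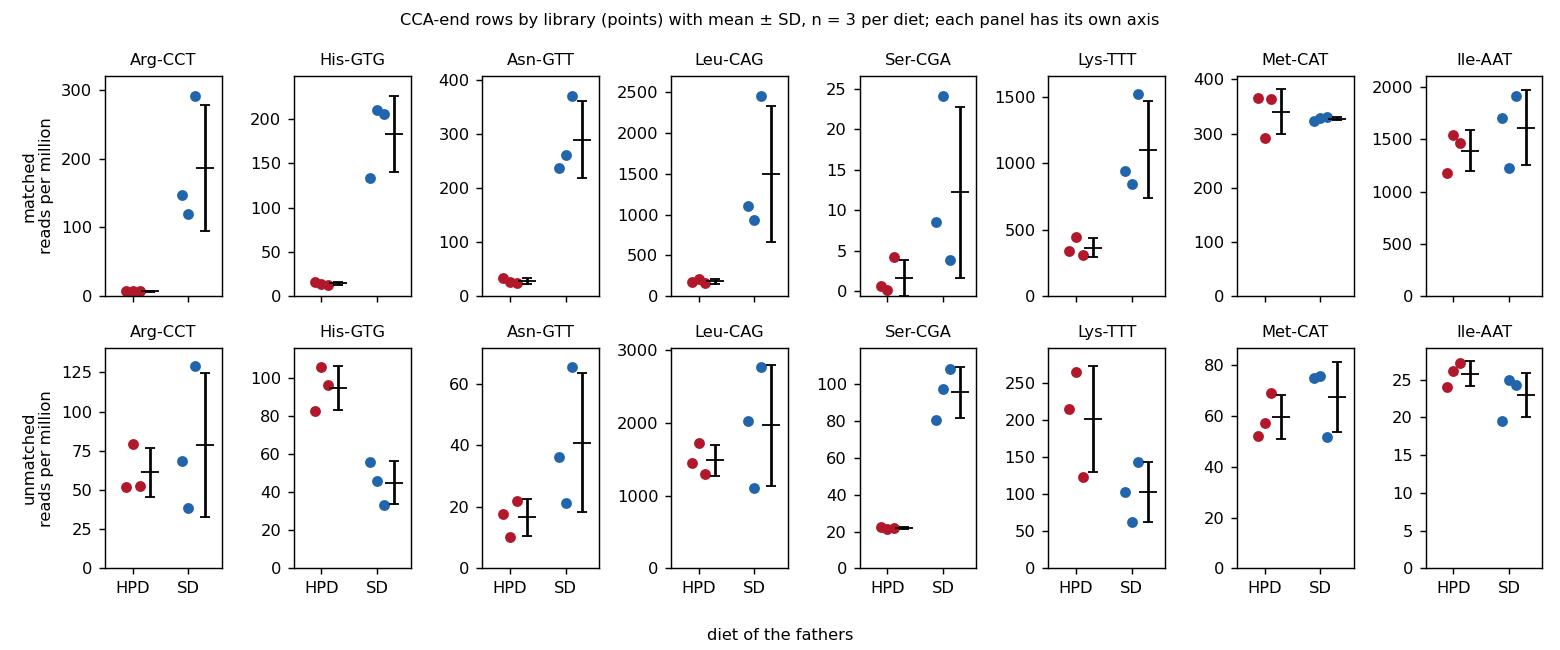
CPM (TMM-scaled) of matched CCA ends (top) and unmatched CCA ends (bottom) of 8 tRNAs in each library, HPD in red and SD in blue, with bars for mean ± SD of 3 libraries. Each panel has its own axis, starting at or just under 0. Matched Arg-CCT, His-GTG, Asn-GTT, Leu-CAG and Lys-TTT separate the diets, Met-CAT and Ile-AAT do not.

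Some of the widest ratios came from rows of few reads. Matched tRNA-Glu-CTC, a glutamate carrier, held 0 reads in each HPD library, against 14, 16 and 29 reads in SD, which puts it at least 23.3-fold lower in HPD at a floor of 3 counts over the group. Matched tRNA-Val-TAC, a valine carrier, held 0, 6 and 1 reads in HPD, against 79, 23 and 61 reads in SD (-4.72 ± 0.87). Its unmatched row was at 119, 168 and 152 CPM in HPD, against 209, 139 and 385 in SD, with overlap (-0.74 ± 0.36). Without HPD3 the log2 fold change of matched Val-TAC was -6.60. tRNA-Arg-TCT, a second arginine carrier, was at 1.82, 0.494 and 2.31 matched CPM in HPD, against 18.3, 18.1 and 50.2 in SD (-4.21 ± 0.63). tRNA-Ile-TAT, an isoleucine carrier, was at 3.11, 1.48 and 4.27 in HPD, against 39.8, 23.7 and 80.5 in SD (-4.01 ± 0.58). In both, all HPD libraries lay under all SD libraries, and CTRL3 was the highest. These rows share reads, since their counts add up to whole reads in every library, as 9.25 and 15.75 do in HPD2. They are therefore not separate measurements. Without CTRL3 the log2 fold changes were -3.55 for Arg-TCT and -3.41 for Ile-TAT. The unmatched row of Ile-TAT was at 17.4, 22.9 and 20.5 in HPD, against 31.7, 34.1 and 73.2 in SD (-1.19 ± 0.39), also without overlap.

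The most abundant matched row belonged to tRNA-Ile-AAT and overlapped between the diets. It was at 1175, 1539 and 1465 CPM in HPD, against 1704, 1222 and 1913 in SD (-0.21 ± 0.24). It made up 27.5 ± 2.64% of all matched CCA-end reads in HPD and 13.3 ± 1.24% in SD. The matched row of tRNA-Met-CAT, which carries methionine for elongation, was the one with a positive log2 fold change (0.06 ± 0.22), at 366, 292 and 364 in HPD, against 324, 328 and 329.9 in SD. Its sign turned to -0.07 under library size alone and to -0.19 when tRNA rows were fitted on their own. Matched tRNA-Glu-TTC was also close to 0, at 147, 128 and 161 in HPD, against 216, 169 and 103 in SD (-0.16 ± 0.30). The sign of Glu-TTC turned without CTRL1 (0.11), with upper quartile factors (0.09), without a filter (0.08) and at a mean normalized count of at least 50 (0.01), and that of Ile-AAT with upper quartile factors (0.02) and without a filter (0.06). In these 3 rows the diets overlapped. Their unmatched partners included tRNA-Ile-AAT at 24.1, 26.1 and 27.2 in HPD, against 19.6, 25 and 24.3 in SD (0.17 ± 0.30), and Met-CAT at 52.2, 57.3 and 69.0 in HPD, against 75.0, 75.7 and 51.6 in SD (-0.18 ± 0.29). These unmatched rows turned sign too, Ile-AAT with tRNA rows on their own (-0.08), and Met-CAT with upper quartile factors, without a filter (0.07 in both) and without CTRL2 (0.04).

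Abundant matched rows of lysine, glutamine and phenylalanine tRNAs lay between these extremes. tRNA-Lys-TTT was at 338, 449.9 and 310.3 in HPD, against 944, 846 and 1519.7 in SD (-1.59 ± 0.29), and tRNA-Gln-CTG at 224, 337 and 296 in HPD, against 857, 719.6 and 1077 in SD (-1.63 ± 0.26). Both had unmatched rows that leaned the other way, at 215, 266 and 124 for Lys-TTT and 79.3, 134 and 63.4 for Gln-CTG in HPD, against 104, 63.4 and 144 for Lys-TTT and 64.1, 36.6 and 46.1 for Gln-CTG in SD, with overlap in both. Matched tRNA-Phe-GAA was at 371, 289 and 390.1 in HPD, against 956, 597 and 462 in SD (-0.94 ± 0.30), without overlap. Its unmatched row was at 28.6, 20.2 and 28.2 in HPD, against 38.5, 25 and 46.8 in SD (-0.52 ± 0.34), and overlapped.

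All 47 unmatched rows passed the filter, and they split about evenly, with 21 negative and 26 positive log2 fold changes and a median of 0.17. Of these, 3 were called lower and 1 higher in HPD, where 6.4% of all rows tested were called lower and 2.21% higher, so that both counts were near the background. In addition, 8 lay lower and 15 higher in every HPD library, where 13.1% of all rows tested lay lower and 11.9% higher. The calls depended on the scaling, with 5 lower and 7 higher by DESeq2, 1 lower and 9 higher with upper quartile factors, 3 lower and 0 higher with library size alone, and 11 lower and 2 higher when tRNA rows were fitted on their own. The calls over all rows moved as well, to 142 lower and 68 higher of 1328 by DESeq2 and to 67 lower and 38 higher of 263 tRNA rows on their own. In that last fit the median of the unmatched rows was -0.08. With any 1 library left out 1 to 2 rows were called lower and 0 to 5 higher, with 0 higher without CTRL1, CTRL2, HPD2 or HPD3, 3 without CTRL3 and 5 without HPD7. The median was 0.21 in the 37 rows with a matched partner and -0.18 in the 10 rows without.

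tRNA-Ser-CGA, a serine carrier, had the most negative unmatched row, at 22.5, 21.5 and 21.8 CPM in HPD, against 80.6, 97.6 and 108 in SD (-2.12 ± 0.28). Its matched row was thin, at 0.591, 0.141 and 4.18 in HPD, against 8.59, 24.1 and 3.90 in SD (-2.83 ± 0.99), and HPD7 lay within the SD range. The log2 fold change of that matched row was -4.97 without HPD7 and -1.82 without CTRL2. The other called rows were lower for tRNA-Thr-AGT, at 82.2, 81.2 and 88.1 in HPD, against 163, 154 and 271 in SD (-1.22 ± 0.29), and for tRNA-Arg-TCT, at 42.5, 52.7 and 45.0 in HPD, against 97.5, 75.2 and 130.1 in SD (-1.11 ± 0.30). Matched Thr-AGT, of a threonine carrier, was at 4.73, 9.88 and 7.85 in HPD, against 29.6, 20.9 and 63.7 in SD (-2.33 ± 0.49, and -1.74 without CTRL3). For these tRNAs both kinds of CCA end were lower in HPD. Unmatched tRNA-Leu-AAG was the row called higher (1.0 ± 0.25).

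Unmatched CCA ends were concentrated in a few tRNAs, and the 5 most abundant held 64.0 ± 2.69% of their reads in HPD and 62.3 ± 1.16% in SD. tRNA-Asp-GTC, the aspartate carrier, has no matched row and was at 8707, 6956 and 7049 CPM in HPD, against 7147, 6394 and 11362 in SD, with overlap (-0.13 ± 0.25). Its sign turned without CTRL3 (0.17) or HPD7 (0.05), with upper quartile factors (0.09), without a filter (0.15) and at a mean normalized count of at least 50 (0.01). tRNA-Glu-TTC was at 10138, 7993 and 9317 in HPD, against 5865, 5222 and 6817 in SD (0.62 ± 0.20). The glutamate row lay higher in every HPD library, as did tRNA-Val-AAC, at 1432, 1567 and 1537 in HPD, against 1112, 886 and 816 in SD (0.69 ± 0.22). tRNA-Ser-TGA was at 1706, 1792 and 1165 in HPD, against 985, 846 and 1046 in SD (0.70 ± 0.24), and it too lay higher in every HPD library. Unmatched Glu-CTC, whose matched row held no HPD read, was at 1283, 1108 and 931 in HPD, against 571, 481 and 779.8 in SD (0.86 ± 0.25). The unmatched rows of Glu-CTC and Glu-TTC share reads, since their counts add up to whole reads in every library, as 6508.84 and 51423.16 do in HPD2. The rises in these rows are therefore not separate measurements.

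Paired by tRNA, the matched row lay below the unmatched row on the log2 scale in 33 of the 34 tRNAs, by a median of -2.04 (HPD over SD, matched minus unmatched). In 21 pairs the matched row was lower and the unmatched row higher in HPD, in 12 both were lower, and in Met-CAT alone the matched row was higher and the unmatched row lower. The signs of the unmatched rows moved with the scaling, from 17 negative with upper quartile factors to 26 negative with tRNA rows on their own. The median matched percentage of CCA-end reads by tRNA was 14.2 in HPD and 58.7 in SD, and the HPD mean was lower in 33 of 34. For tRNA-His-GTG it was 16.7, 11.8 and 11.9 percent in HPD, against 70.5, 82.0 and 86.1 percent in SD. For tRNA-Ile-AAT it stayed high in both diets, at 98.0, 98.3 and 98.2 percent in HPD, against 98.9, 98.0 and 98.7 percent in SD. Met-CAT was the exception, with 87.5, 83.6 and 84.1 percent in HPD, against 81.2, 81.3 and 86.5 percent in SD. Within each diet the tRNAs ranged from nearly all matched, as in Ile-AAT, to nearly none, as in Glu-CTC.

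**Figure D3:**
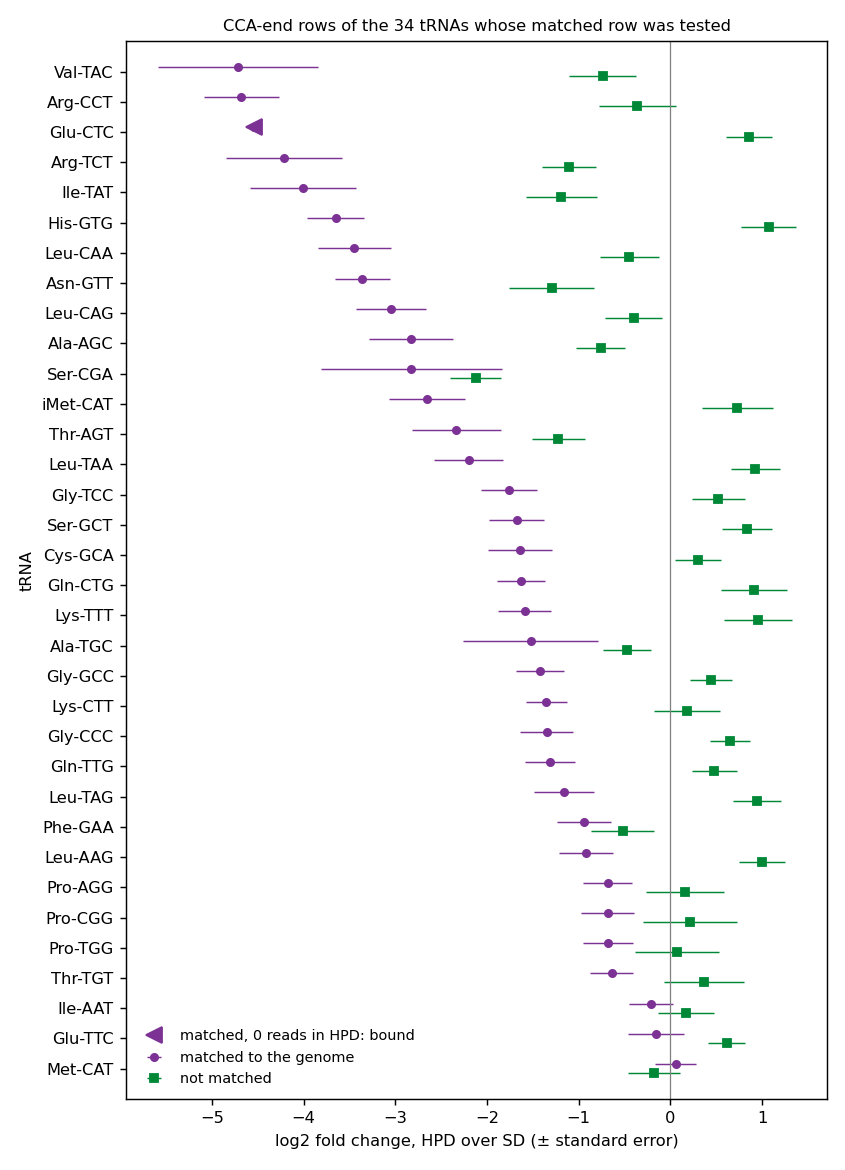
Log2 fold change (HPD over SD, ± SE) of the matched (purple) and unmatched (green) CCA-end row of each of 34 tRNAs, ordered by the matched row; the triangle marks the bound for Glu-CTC, which held 0 matched reads in HPD. The matched row lies left of the unmatched one in 33 tRNAs.

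**Figure D4:**
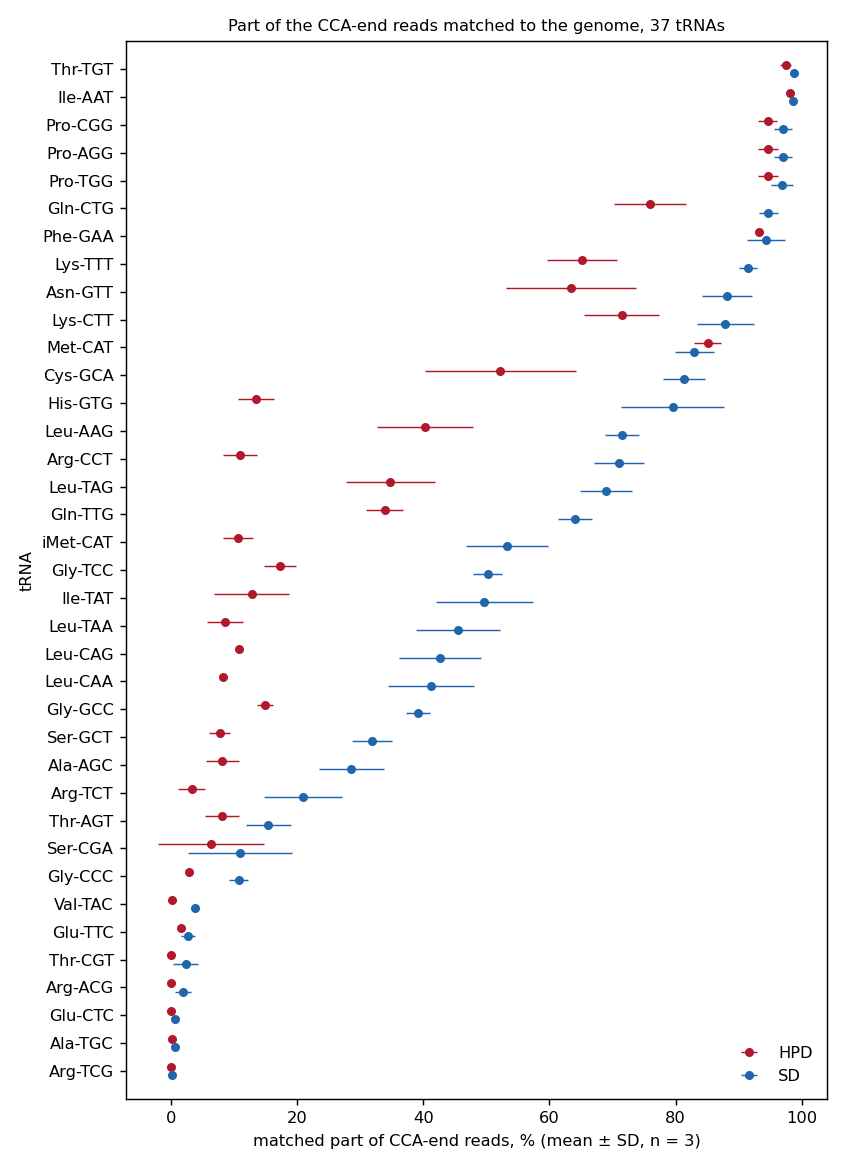
Percentage of CCA-end reads that match the genome by tRNA, mean ± SD of 3 libraries, HPD in red above SD in blue, for the 37 tRNAs with both rows. Ile-AAT and Thr-TGT are high in both diets, while His-GTG and Arg-CCT lie far apart.

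As a share of the whole row of their tRNA, matched CCA ends were 0.835 ± 0.141% of matched reads in HPD and 2.60 ± 0.622% in SD. By tRNA the median share was 1.33% in HPD and 8.80% in SD, and it was lower in HPD in 34 of 34 tRNAs, including Met-CAT and Ile-AAT. In these the matched CCA ends overlapped between the diets. The rest of the matched whole row was called higher for Ile-AAT (1.40 ± 0.28, adjusted p = 0.0103, edgeR). For Met-CAT the rest did not pass (0.71 ± 0.23, adjusted p = 0.0926, edgeR). For tRNA-Ile-AAT the share of matched CCA ends was 12.7, 13.6 and 22.2 percent in HPD, against 39.5, 33.5 and 34.8 percent in SD. For tRNA-Asn-GTT it was 2.34, 1.43 and 0.997 percent in HPD, against 23.3, 15.2 and 31.2 percent in SD. The unmatched whole rows consist mostly of CCA ends, at 85.2 ± 1.88% in HPD and 86.6 ± 0.971% in SD, with overlap. tRNA-His-GTG differs, since its unmatched row holds mainly 5′ ends, and CCA ends were 3.17, 2.72 and 4.54 percent of it in HPD, against 3.76, 3.78 and 1.11 percent in SD.

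With matched and unmatched reads of a tRNA summed, 12 of 47 CCA-end totals were called lower and 0 higher in HPD, where 5.70% of rows in that fit were called lower and 2.25% higher, and the median log2 fold change was -0.48. DESeq2 called 2 totals higher, and 6 were higher at an unadjusted p under 0.05 by edgeR. These totals sum the rows on which the set was proposed, so nothing is read from these counts. The lowest was tRNA-Asn-GTT, at 51.3, 37 and 46.2 in HPD, against 273, 282 and 437 in SD (-2.88 ± 0.29), followed by Ser-CGA (-2.20), Ile-TAT (-2.01) and Arg-CCT (-1.95). The others called were Arg-TCT, Thr-AGT, Gln-CTG, Ala-AGC, Lys-TTT, His-GTG, Lys-CTT and Cys-GCA. Leaving out 1 library gave 2 to 8 lower totals, with 2 without HPD2, 3 without HPD7, 4 without HPD3, 6 without CTRL2 and 8 without CTRL1 or CTRL3. With tRNA rows fitted on their own 26 totals were lower and 0 higher, where 57 of 229 rows were lower and 25 higher, and with upper quartile factors 8 were lower and 2 higher, where 87 of 1824 rows were lower and 58 higher.

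By amino acid, the matched CCA-end reads were lower in HPD for 17 of 18 names. Val (-4.87), Arg (-4.62) and His (-3.65) had the lowest log2 ratios of group means. The Val sum is the Val-TAC row alone, which held 0, 6 and 1 reads in HPD, so its ratio is limited by depth. For Arg the sums were 9.71, 7.55 and 9.27 CPM in HPD, against 168, 139 and 345 in SD. Met (0.06), Glu (-0.19) and Ile (-0.25) had the highest ratios, and in these 3 the diets overlapped. Unmatched reads by amino acid were lower in 12 and higher in 10 of 22 names. Asn (-1.30), Ile (-0.59) and Ala (-0.53) were lowest, and His (1.07), iMet (0.73) and Glu (0.64) highest. For Glu, the most abundant of these, the sums were 11421, 9101 and 10247 in HPD, against 6436, 5703 and 7597 in SD, without overlap. Arg and Ile share reads through Arg-TCT and Ile-TAT, matched and unmatched, so their sums are not separate measurements.

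Reads of the same tRNAs that are not CCA ends lie outside the rows of the set, and these were tested. They do count in the whole rows that served as denominators above, and earlier results of these data were known. The tests are therefore not independent of how the set was chosen. Matched 5′ ends, the bulk of sperm tRNA fragments, rose in 11 and fell in 2 of 46 rows in HPD, with a median log2 fold change of 0.62, where 2.21% of all rows rose and 6.4% fell. 5′ ends of tRNA-Lys-TTT rose to 35752, 36622 and 31847 CPM in HPD, against 11915, 13524 and 10982 in SD (1.52 ± 0.19, adjusted p = 0.00145, edgeR). Those of tRNA-Ile-AAT rose to 7756, 9375 and 4916 in HPD, against 2442, 2196 and 3398 in SD (1.46 ± 0.28, adjusted p = 0.009, edgeR). Matched CCA ends of Lys-TTT were lower in HPD (-1.59 ± 0.29), while those of Ile-AAT overlapped between the diets (-0.21 ± 0.24). 5′ ends of tRNA-Glu-CTC fell to 20640.4, 21167 and 18006 in HPD, against 45951, 51942 and 42855 in SD (-1.23 ± 0.18, adjusted p = 0.00249, edgeR), and those of tRNA-Thr-AGT to 3.45, 1.84 and 2.53 in HPD, against 10.9, 43.4 and 13.0 in SD (-3.09 ± 0.61, adjusted p = 0.00991, edgeR). The unmatched 5′ end of tRNA-His-GTG, the one such row of that kind, did not pass (0.58 ± 0.37, adjusted p = 0.549, edgeR). Leaving out 1 library gave 4 to 13 rows higher, with 4 without HPD3, 5 without CTRL2 and 7 without HPD2, and 0 to 5 rows lower, with 5 without CTRL1, 0 without CTRL2 and 1 without HPD3 or HPD7. With tRNA rows on their own 13 rose and 7 fell, where 38 of 263 rows rose and 67 fell, and with library size alone 9 rose and 4 fell, where 31 of 1858 rows rose and 143 fell.

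3′ ends without CCA lie next to the CCA end on the tRNA, and 40 of their 47 rows passed the filter. Of these, 9 rose and 1 fell in HPD, with a median log2 fold change of 0.80, where 2.21% of all rows rose and 6.4% fell. Alanine tRNAs rose most, and 3′ ends of tRNA-Ala-AGC were at 67.5, 39.8 and 24.9 CPM in HPD, against 4.29, 8.0 and 6.34 in SD (2.84 ± 0.46, adjusted p = 0.00358, edgeR). Matched CCA ends of tRNA-Ala-AGC were at 13.2, 11.0 and 33.3 in HPD, against 127, 106 and 178 in SD (-2.83 ± 0.45). 3′ ends of tRNA-Glu-CTC rose to 87.9, 72.5 and 62.2 in HPD, against 20.8, 21.2 and 22.0 in SD (1.79 ± 0.29, adjusted p = 0.00361, edgeR), and those of tRNA-Leu-CAG to 83.1, 85.9 and 39.3 in HPD, against 21.1, 20.3 and 24.9 in SD (1.65 ± 0.36, adjusted p = 0.0173, edgeR). The others that rose were Ala-TGC, Ala-CGC, Thr-TGT, Pro-AGG, Pro-CGG and Pro-TGG. The row that fell was SeC-TCA, the selenocysteine carrier, at 0.394, 0.423 and 0.633 in HPD, against 2.02, 1.59 and 15.4 in SD (adjusted p = 0.0488, edgeR), and no 3′ row fell when any 1 library was left out. Leaving out CTRL1, HPD2 or HPD3 left 4 rows higher. There were 4.44 ± 0.904 such reads per 100 CCA-end reads in HPD and 2.59 ± 1.27 in SD, with overlap.

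The matched whole row of each tRNA, after its CCA-end reads were taken out, rose in 17 and fell in 1 of 47 tRNAs in HPD. The median log2 fold change was 0.73, where 2.48% of the rows in that fit rose and 6.62% fell. These rows still hold the 5′ and 3′ end reads described above, so their changes are not separate from those. Matched 5′ ends alone were 78.8% of tRNA fragment reads in HPD and 79.2% in SD. Among the 34 tRNAs with a tested matched CCA end, 14 rose and 1, Glu-CTC, fell (-1.15 ± 0.18, adjusted p = 0.00339, edgeR), with a median of 0.75. tRNA-Lys-TTT rose to 39896, 41705 and 35264 CPM in HPD, against 15049, 15589 and 12871 in SD (1.41 ± 0.19, adjusted p = 0.0019, edgeR). tRNA-Arg-CCT and tRNA-His-GTG, whose matched CCA ends were among the lowest in HPD, did not pass, at 0.58 ± 0.23 (adjusted p = 0.183, edgeR) and 0.63 ± 0.29 (adjusted p = 0.293, edgeR). Leaving out 1 library gave 4 to 14 rows higher, with 4 without HPD3, 7 without CTRL2 and 9 without CTRL1, CTRL3 or HPD2, and 0 rows lower without CTRL2, HPD2 or HPD3. With tRNA rows on their own 14 rose and 4 fell, where 34 of 263 rows rose and 64 fell.

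**Figure D5:**
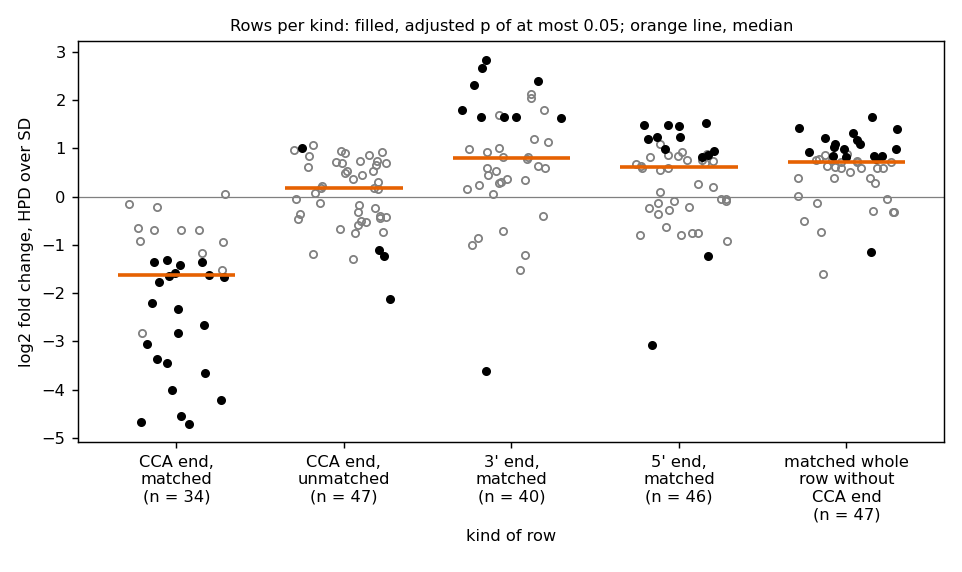
Log2 fold change (HPD over SD) of each row by kind, with filled points for rows at an adjusted p of at most 0.05, open points for the rest, and orange lines for medians. Medians were -1.64 for matched CCA ends, 0.17 for unmatched CCA ends, 0.80 for 3′ ends, 0.62 for 5′ ends and 0.73 for the rest of the matched whole row; Glu-CTC is drawn at its bound.

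Near-identical tRNAs share reads in this annotation, so single rows are not separate measurements. Fractional counts, where a read was divided among rows, occurred in 17 of 37 matched rows holding 43.0% of matched reads and in 27 of 47 unmatched rows holding 59.8% of unmatched reads. Matched CCA ends of tRNA-Pro-AGG and tRNA-Pro-TGG kept a ratio of 1.17 in every library, and those of Pro-AGG and Pro-CGG a ratio of 2.34. The matched rows of proline, at log2 fold changes of -0.68 for Pro-AGG, -0.68 for Pro-CGG and -0.68 for Pro-TGG, are therefore not separate measurements, although each counts as a row in the counts above. The same holds for Leu-CAG with Leu-CAA, Leu-AAG with Leu-TAG, and Arg-TCT with Ile-TAT, matched and unmatched. It also holds for the unmatched rows of Glu-CTC with Glu-TTC. In each of these pairs the counts, in part fractional, add up to whole reads in every library.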

How the data were processed

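Libraries of sperm small RNA came from 3 HPD and 3 SD rats. The authors trimmed adapters, discarded reads shorter than 15 nucleotides and annotated the rest with SPORTS1.0 at default settings on Rnor_6.0, which sorts tRNA reads by end and by whether they match the genome. Bowtie, DESeq, DESeq2 and the build mm9 are further named in the submitters' processing notes. The paper's methods and the labels name different library kits. The authors deposited estimated counts per row, not normalized and in part fractional, where a read was divided among rows. The authors also deposited normalized counts, a signal in which counts without their fractions are scaled by 1 size factor per library. From these, 100% of values in each library came out as whole reads within 1e-06.

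Libraries were grouped by the diet in the column names. Estimated counts were rounded and fitted in edgeR 4.0.16 (R 4.3.3) with TMM factors and filterByExpr (minimum count 10, minimum total 15), with the quasi-likelihood test and Benjamini-Hochberg adjustment over 1858 of 26562 rows. Library size was the sum of rows not nested in another row. CPM used TMM-scaled library sizes (factors 0.889 to 1.08). A snoRNA total that names no RNA, 1.25% to 1.45% of reads in HPD and 0.293% to 0.536% in SD, was left out. 2 further fits replaced the CCA-end rows of a tRNA by their sum, or took CCA-end reads out of the matched whole rows. The rows of 1 fit are not independent, since near-identical tRNAs share reads. Each p-value sets the difference between the diets against the spread between the 3 libraries of a diet, estimated with information from all rows tested.

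Alternatives were DESeq2 1.42.0, limma 3.58.1 on log2 of the normalized counts plus 1, library size alone, upper quartile factors, no filter, a mean normalized count of at least 50, tRNA rows on their own and each library left out. A fit on the recovered whole reads was added after seeing the data and called 120 rows lower and 44 higher. Scripts were tested on simulated data. Figures were drawn with matplotlib 3.10.9.

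The members, lists and rules were chosen with earlier results of these data known. Rows named with values were the 5 most abundant of each kind; the 8 lowest and 2 highest matched and the 4 lowest and 4 highest unmatched log2 fold changes among rows that passed the filter; their partners; all unmatched calls; and the 3 highest and 3 lowest amino acids of each kind. Ala-AGC and the proline rows were named after their values were seen. No tRNA sequence was used here.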

Additional observations from a re-analysis of the deposited data

How the results depend on the processing

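The number of matched CCA ends called was 20 to 30 lower and 0 higher under the alternative settings run, of 34 rows tested or 30 at a mean normalized count of at least 50, and 17 to 22 lower with 1 library left out, with a median log2 fold change between -1.88 and -1.37. Unmatched CCA ends did not keep a direction, with medians from -0.08 to 0.44. The median of all rows itself moved to 0.28 with upper quartile factors, 0.69 without a filter, 0.53 by DESeq2, 0.18 by limma and -0.09 with library size alone. Calls over all rows moved too, from 119 lower and 41 higher of 1858. They were 142 and 68 of 1328 by DESeq2, 91 and 85 of 1858 with upper quartile factors and 89 and 69 of 23981 without a filter. At a mean of at least 50 they were 128 and 95 of 556, and for tRNA rows on their own 67 and 38 of 263. Library size alone gave 143 and 31 of 1858, and limma 112 and 46 of 1858. Leaving out 1 library gave 62 to 115 lower and 15 to 50 higher. Against 3 unmatched rows lower, DESeq2 gave 5, upper quartile factors 1, no filter 1, tRNA rows on their own 11, and leaving out 1 library 1 to 2. Against 1 higher, the counts were 7 by DESeq2, 0 with library size alone, 9 with upper quartile factors, 4 without a filter, 14 at a mean normalized count of at least 50, 2 on their own, 4 by limma, 2 on recovered whole reads and 0 to 5 with 1 library left out. CCA-end totals lower (12) became 4 without a filter, 26 on their own and 2 to 8 with 1 library left out. Totals higher (0) became 2 by DESeq2, 2 with upper quartile factors, 1 without a filter, 5 at a mean of at least 50 and 0 to 2 with 1 library left out. All rows of those fits had 125 lower and 58 higher of 1326 by DESeq2 and 87 and 58 of 1824 with upper quartile factors. They had 65 and 62 of 23944 without a filter, 113 and 82 of 528 at a mean of at least 50 and 57 and 25 of 229 on their own. Leaving out 1 library gave 47 to 98 lower and 16 to 40 higher. For 5′ ends, lower rows (2) became 4 with library size alone, 7 on their own and 0 to 5 with 1 library left out. Their higher rows (11) became 17 by DESeq2, 20 with upper quartile factors, 21 without a filter, 22 at a mean of at least 50 and 4 to 13 with 1 library left out. For 3′ ends, the lower row (1) became 2 by DESeq2 and on their own, and 0 with upper quartile factors, without a filter, at a mean of at least 50, by limma and with any 1 library left out, and higher rows (9) ranged from 4 to 9 with 1 library left out. For the rest of the matched whole row, lower (1) became 0 without a filter, 4 on their own and 0 to 1 with 1 library left out, and higher (17) became 9 with library size alone, 29 with upper quartile factors, 30 at a mean of at least 50 and 4 to 14 with 1 library left out. All rows of these fits had 89 lower and 70 higher of 23981 without a filter and 64 and 34 of 263 on their own. They had 141 and 33 of 1858 with library size alone, 92 and 92 of 1858 with upper quartile factors and 122 and 95 of 556 at a mean of at least 50. Leaving out 1 library gave 63 to 113 lower and 15 to 48 higher. The log2 ratio of the unmatched share was 0.051 with all small RNA reads as denominator and -0.28 to 0.00 with 1 library left out, against -0.17. Amino acids with matched reads higher (1) became 0 with library size alone, 2 with upper quartile factors and 1 to 2 with 1 library left out. The cause of these changes was not tested. No paired analysis was possible because the library columns could not be tied to numbered rats. Matched rows under 3 reads in HPD (Arg-ACG, Arg-TCG, Thr-CGT, Glu-CTC) are limited by depth.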
